A study of Mus musculus with 34 samples.

Results

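The mitosis genes described here are 56 genes of the G2 phase and of cell division, given as a list of gene symbols. The rule was membership of that list and used no measured value, but the list was drawn up with earlier results of these data known. All 56 were found among the 23509 genes of the count tables, and all 56 passed the filter on low counts that left 15644 genes for testing. Kidney polyadenylated RNA was sequenced from C57BL6 mice on postnatal day 28 (P28). The 3 groups were *Pkd2*-KO mice given PBS (n = 11), *Pkd2*-KO mice given RGLS4326 at 20 mg per kg (n = 11), both by subcutaneous injection on P10, P11, P12 and P19, and wildtype mice that were left untreated (UNT, n = 12). In the *Pkd2*-KO model a Cre recombinase under the *Pkhd1* promoter, which is active in kidney tubules, removes floxed *Pkd2* alleles, so that whole kidney RNA also came from cells that had kept the gene. RGLS4326 is a short, chemically modified oligonucleotide that binds the microRNA miR-17. All *Pkd2*-KO mice had been injected and the UNT mice had not, so that the genotype and the injections cannot be told apart in a comparison with UNT.

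A cell enters mitosis when cyclin B and its partner kinase Cdk1 become active. The chromosomes are then condensed and disentangled, a spindle of microtubules is built by motor proteins, and kinetochores tie each chromosome to it. The spindle checkpoint holds back the anaphase-promoting complex (APC/C) until every chromosome is attached. Securin and cyclin B are then destroyed, sister chromatids part, and the cell is divided by a contractile ring. Most of these genes are transcribed late in the cell cycle, through promoters bound by the MuvB, B-Myb and FoxM1 proteins at the cell cycle homology region (CHR) and by NF-Y at CCAAT boxes, and they are silenced in resting cells by the DREAM complex. Few cells divide in the tubules of a mature kidney, while cyst growth is known to involve division of the tubule epithelium. The 56 genes comprised 9 cyclins, kinases and regulators of cycle progression, 4 spindle checkpoint genes, 8 mitotic kinases and members of the chromosomal passenger complex, 10 kinesins, 6 centromere and kinetochore genes, 7 spindle microtubule genes, 5 genes of anaphase onset and cohesion, 3 cytokinesis genes and 4 condensin genes.

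The promoters of 5 members described below are shown. *Ccnb1* and *Cdk1* make up the mitotic kinase, and *Anln* had the largest change in cystic kidneys. *Kif11* was higher in PBS-treated than in UNT kidneys and in RGLS4326-treated than in PBS-treated kidneys. *Pttg1* was lower in both *Pkd2*-KO groups than in UNT. Each line gives 150 bases before and 50 bases after the annotated start, 5′ to 3′ on the gene's strand (RefSeq, GRCm38.p6), with TTTGAA or TTTAAA, the letters of the CHR, and CCAAT in capitals on either strand, so that TTCAAA and ATTGG are the same motifs read from the other strand.
Ccnb1, chr13:100786437-100786636, minus strand: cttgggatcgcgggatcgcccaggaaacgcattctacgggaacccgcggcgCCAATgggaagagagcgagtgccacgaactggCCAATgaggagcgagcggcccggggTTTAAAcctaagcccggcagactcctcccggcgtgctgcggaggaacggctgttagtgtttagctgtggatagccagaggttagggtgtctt
Cdk1, chr10:69352863-69353062, minus strand: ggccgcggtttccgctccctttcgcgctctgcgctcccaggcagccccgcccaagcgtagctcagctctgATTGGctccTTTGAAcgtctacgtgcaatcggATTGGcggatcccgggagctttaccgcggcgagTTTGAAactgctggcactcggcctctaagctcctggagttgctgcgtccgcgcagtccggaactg
Anln, chr9:22389157-22389356, minus strand: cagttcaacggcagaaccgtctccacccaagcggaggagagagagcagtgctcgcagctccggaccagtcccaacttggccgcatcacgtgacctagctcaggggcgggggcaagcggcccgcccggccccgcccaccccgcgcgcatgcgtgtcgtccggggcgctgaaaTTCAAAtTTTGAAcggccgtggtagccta
Kif11, chr19:37376232-37376431, plus strand: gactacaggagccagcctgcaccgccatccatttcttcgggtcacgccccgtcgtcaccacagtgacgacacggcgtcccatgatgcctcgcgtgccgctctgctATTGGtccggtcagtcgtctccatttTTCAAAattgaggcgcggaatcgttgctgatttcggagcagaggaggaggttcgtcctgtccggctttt
Pttg1, chr11:43425932-43426131, minus strand: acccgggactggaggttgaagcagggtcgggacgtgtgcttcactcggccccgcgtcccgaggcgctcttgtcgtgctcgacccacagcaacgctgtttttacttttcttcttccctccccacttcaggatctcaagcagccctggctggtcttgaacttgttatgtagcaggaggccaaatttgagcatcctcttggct
The *Ccnb1* window held 2 CCAAT motifs and a TTTAAA, that of *Cdk1* a pair of each kind, that of *Kif11* 1 of each, and that of *Anln* 2 neighbouring TTTGAA motifs and no CCAAT. The *Pttg1* window held neither.

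RefSeq promoters were matched for 49 of the 56 members and gave 53 windows, because *Cenpk* had 3 annotated starts and *Ect2* and *Prc1* had 2 each. In the whole window, from 250 bases before to 50 bases after the start, TTTGAA was found in 37 of the 53 (69.8%), against 17.9% of the 32851 windows of all genes in the same table. Counting TTTAAA as well, 77.4% of the members' windows and 27.6% of all windows held a match. CCAAT was found in 71.7% and 37.4%, 2 or more CCAAT in 43.4% and 11.7%, and TTTGAA together with CCAAT in 58.5% and 6.95%. Over the 14673 windows of tested genes, TTTGAA was in 12.3%, and TTTGAA or TTTAAA in 20.0%. CCAAT was in 37.0% of them, 2 or more CCAAT in 13.1%, and TTTGAA together with CCAAT in 4.88%. A match is a run of letters and not a shown binding site, and in *Cdca8* a TTTGAA and an ATTGG shared bases. In some other members, such as *Kif2c* and *Kif14*, the RefSeq start also lay inside the gene as drawn in GENCODE M21.

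The libraries held from 17603122 to 54981992 reads in genes, and the lowest count of any member in any library was 15, so that counting error adds to the spread between mice in the members with few reads. Levels are in CPM (a gene's share of its library's counts, scaled by TMM factors), and adjusted p is that of edgeR's quasi-likelihood test, corrected by Benjamini-Hochberg over all 15644 genes. A gene is called when this adjusted p is under 0.05. *Pkd2* itself, counted over the whole gene with the deleted part not separable, had 220 to 338 CPM in UNT, 98 to 215 in PBS-treated and 170 to 237 in RGLS4326-treated kidneys. Markers of proximal tubule, collecting duct, podocytes and endothelium were present in all libraries. The sequencing names put the libraries in 3 sets, each with 3 or 4 mice of every group. Reads assigned to no gene made up 9.84 to 11.3% of the reads in UNT, 5.18 to 8.995% in PBS and 4.94 to 12.0% in RGLS4326 libraries. RGLS4326 libraries 5, 6 and 7, which were all those of the second set, and library 11, at 11.3, 11.4, 12.0 and 11.7%, stood more than 2 percentage points above every PBS library, and the effect of leaving out these 4 is given with the comparison of RGLS4326 and PBS.

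To ask whether the mitosis genes differ in level in cystic kidneys, PBS-treated *Pkd2*-KO and UNT kidneys were compared. Of the 56 members, 46 were higher in PBS-treated kidneys, against 43.1% of all tested genes, and 3 were lower, against 39%. The median log2 fold change of the members was 0.63, against 0.04 for all tested genes, and 51 of the 56 had a positive value. Within the 3 sets the members' median was 1.03, 0.44 and 0.61, and 41, 23 and 29 members were higher, against 37, 35.9 and 33.8% of all tested genes. In RNA of whole kidney, more dividing cells and more of each transcript in a dividing cell cannot be told apart. The 3 members that were lower were *Cenpk*, *Pttg1* and *Smc4*, and the 7 that were not called were *Cdca3*, *Nek2*, *Kif18a*, *Kif20b*, *Hmmr*, *Cdc20* and *Ect2*. The groups separated completely in 1 member, *Incenp*, against 22.7% of all tested genes that were higher without overlap, and in no member that was lower, against 19.8%. In 17 of the 56, not a single PBS-treated kidney exceeded the highest UNT kidney.

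**Figure D1:**
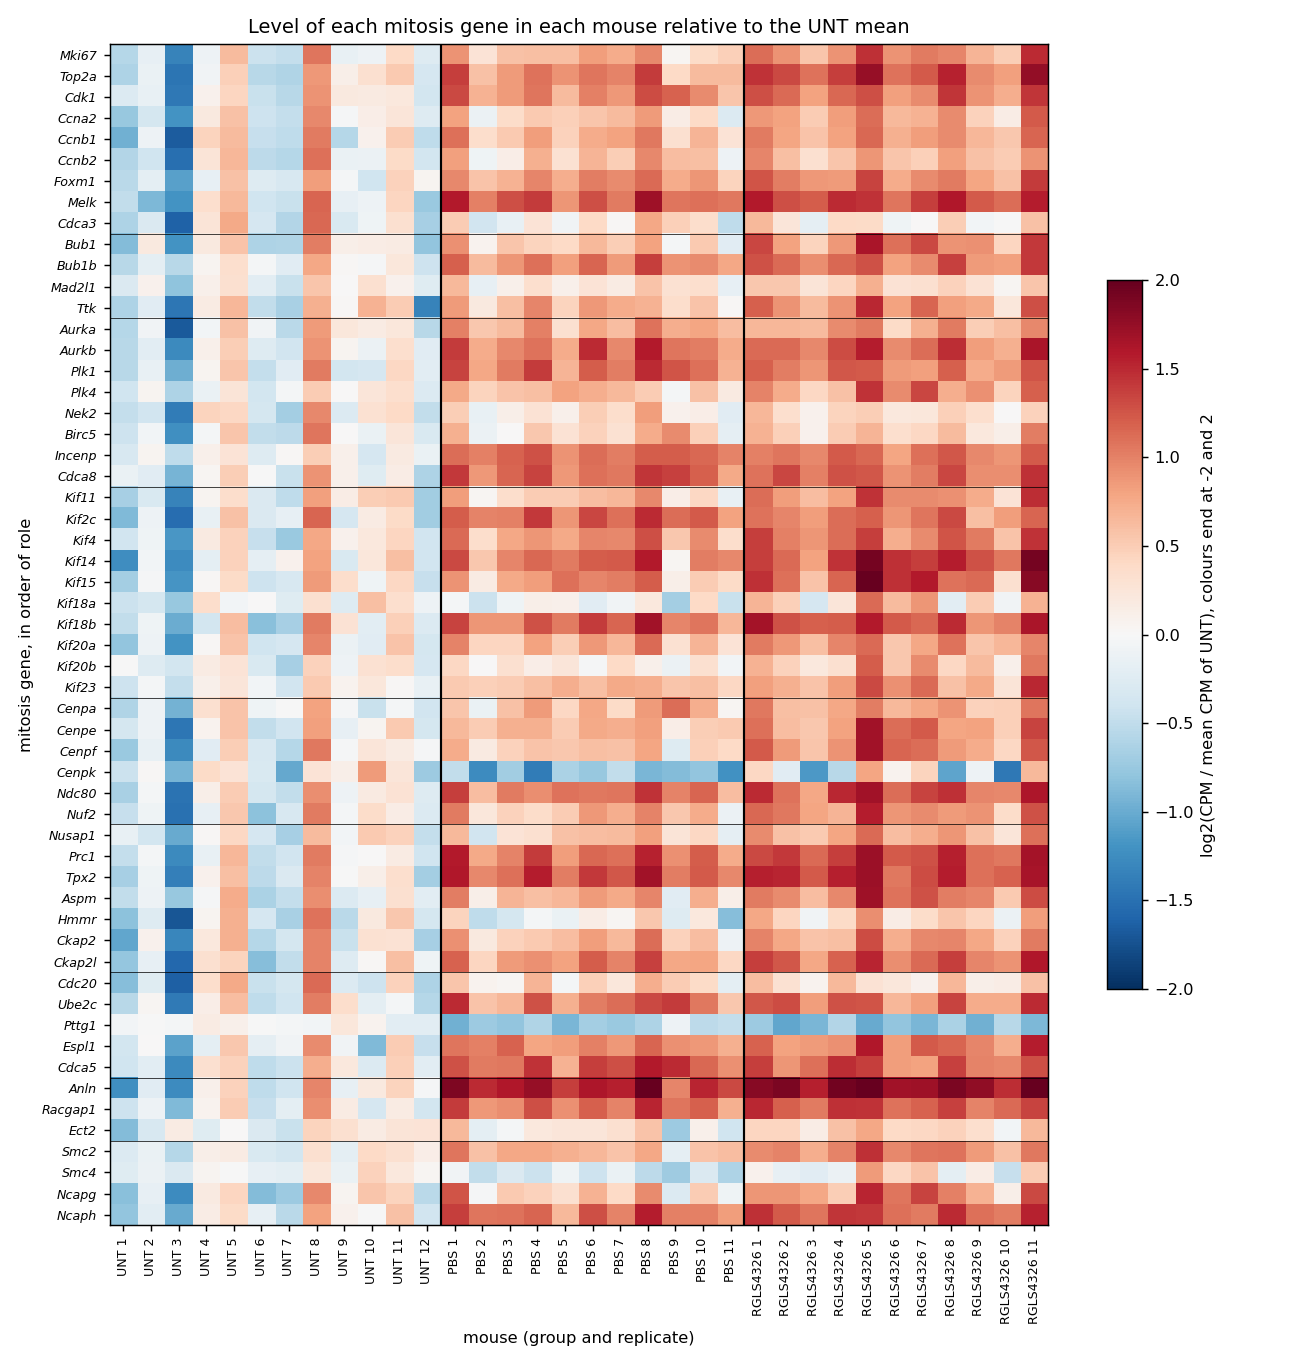
Level of each of the 56 mitosis genes (rows, in order of role) in each mouse (columns) as log2 of its CPM over the UNT mean, with colours ending at -2 and 2. UNT mouse 3 is low and UNT mouse 8 high across nearly all rows, most rows are above the UNT mean in PBS-treated and RGLS4326-treated mice, and the rows of Pttg1, Cenpk and Smc4 are below it in PBS-treated mice.

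The UNT mice differed widely among themselves. The summed level of the 56 members ran from 301 to 914 CPM in UNT, a 3.03-fold range, from 630 to 988 CPM in PBS-treated and from 714 to 1208 CPM in RGLS4326-treated kidneys. UNT mouse 8 had the highest level of its group in 51 of the 56 members and UNT mouse 3 the lowest in 51. The other UNT mice filled the range between them, from a sum of 393 CPM in mouse 1 to 723 CPM in mouse 5. The coefficient of variation between mice had a median over members of 41.0% in UNT, 20.0% in PBS-treated and 18.6% in RGLS4326-treated kidneys, beside 13.9, 16.4 and 15.2% over all tested genes. It was larger in UNT than in PBS-treated mice in 54 of the 56 members, whereas 40.0% of all tested genes were more variable in UNT. In 45 members the highest UNT mouse had more than 3 times the level of the lowest, which was so in 0 members among PBS-treated and in 2 among RGLS4326-treated mice.

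The members moved together from mouse to mouse. Over the 1540 pairs of members, the median of Spearman's rho across the mice of a group was 0.84 in UNT (n = 12), 0.65 in PBS-treated (n = 11) and 0.73 in RGLS4326-treated mice (n = 11), a description in which all pairs share the same libraries and scaling. *Pttg1*, the gene of securin, was the member least like the rest in all 3 groups, with a median rho to the others of 0.18, -0.28 and -0.14. Among PBS-treated mice, mouse 8 was highest in 33 members and mouse 1 in 13, and mouse 11 was lowest in 28. Among RGLS4326-treated mice, mouse 5 was highest in 27 members and mouse 11 in 17, and mouse 10 was lowest in 32.

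Of the 9 cyclins, kinases and regulators, 8 were higher in PBS-treated than in UNT kidneys. *Mki67*, which encodes the Ki-67 protein that coats mitotic chromosomes and is used to mark dividing cells, was at 17.2, 39.05 and 91.3 CPM in UNT, 44.4, 65.5 and 84.2 in PBS-treated and 61.1, 81.1 and 122 in RGLS4326-treated kidneys (lowest, median and highest here and below). The PBS-treated kidneys lay inside the UNT range, whose top was mouse 8, and their mean was higher (log2 fold change of 0.60, SE 0.17, adjusted p = 0.00198). *Top2a*, the topoisomerase that untangles replicated DNA, stood at 9.11, 23.4 and 45.9 CPM in UNT, 33.1, 46.96 and 65.8 in PBS-treated and 44.4, 62.7 and 84.4 in RGLS4326-treated kidneys. Here 6 of the 11 PBS-treated kidneys exceeded every UNT kidney (log2 fold change of 0.93, SE 0.18, adjusted p = 1.05e-05). *Cdk1* was measured at 4.76, 12.6 and 23.7 CPM in UNT, 18.7, 24.7 and 31.99 in PBS-treated and 21.2, 27.9 and 34.3 in RGLS4326-treated kidneys, and again 6 PBS-treated kidneys lay above the UNT maximum (log2 fold change of 0.97, SE 0.16, adjusted p = 8.03e-07). *Ccnb1*, its cyclin partner, had 1.71, 4.47 and 11.1 CPM in UNT, 6.52, 8.65 and 11.6 in PBS-treated and 7.84, 9.47 and 12.1 in RGLS4326-treated kidneys. Its highest UNT mouse, at 6.46 times the lowest, came close to the highest PBS-treated one (log2 fold change of 0.67, SE 0.19, adjusted p = 0.00173). For *Foxm1*, the transcription factor of late cell cycle genes, the levels were 4.04, 7.59 and 15.3 CPM in UNT, 11.6, 15.8 and 18.9 in PBS-treated and 12.9, 16.6 and 22.5 in RGLS4326-treated kidneys (log2 fold change of 0.84, SE 0.15, adjusted p = 3.04e-06). *Melk*, a kinase of dividing cells, had the largest change in this role (1.23), and *Ccnb2* (0.50) and *Ccna2* (0.43), the B2 and A2 cyclins, the smallest of those called. *Cdca3*, an adaptor for the destruction of an inhibitor of mitotic entry, was the exception, at 3.77, 9.35 and 25.6 CPM in UNT, 8.07, 13.97 and 19.6 in PBS-treated and 10.1, 13.6 and 18.1 in RGLS4326-treated kidneys. The UNT range of *Cdca3* enclosed that of the PBS-treated mice (log2 fold change of 0.20, SE 0.20, adjusted p = 0.361), and the 95% interval of its change was -0.21 to 0.61.

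**Figure D2:**
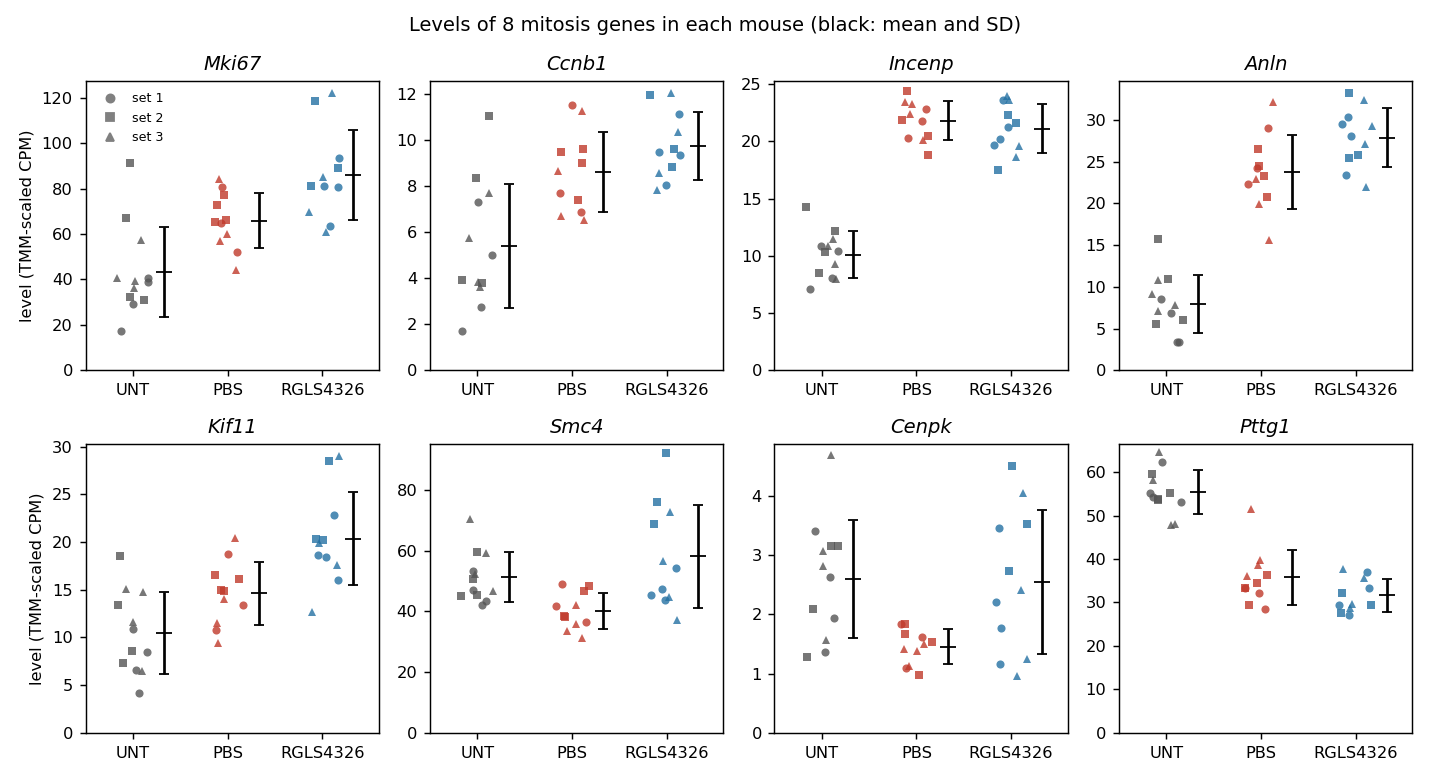
Levels in CPM (linear axis from 0) of 8 mitosis genes in each mouse by group, with the 3 sets as different symbols and the mean and SD as black bars. Incenp separates UNT from PBS-treated mice without overlap, Mki67 and Ccnb1 overlap because of the highest UNT mice, Pttg1 is lower in both Pkd2-KO groups, and Smc4 and Cenpk are lowest in PBS-treated mice.

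All 4 spindle checkpoint genes were higher in PBS-treated kidneys. *Bub1b*, the gene of the checkpoint kinase BubR1, changed most (0.98), and *Ttk*, which encodes the kinase that starts the checkpoint signal, by 0.59. *Bub1*, the kinase gene that gave the family its name, was at 1.604, 4.03 and 7.52 CPM in UNT, 3.13, 5.17 and 6.93 in PBS-treated and 4.97, 6.95 and 11.4 in RGLS4326-treated kidneys. No PBS-treated kidney exceeded the highest UNT kidney in *Bub1* (log2 fold change of 0.45, SE 0.19, adjusted p = 0.0343). *Mad2l1*, whose product inhibits Cdc20, was at 7.296, 13.2 and 18.8 CPM in UNT, 11.3, 15.4 and 20.1 in PBS-treated and 13.2, 17.3 and 20.9 in RGLS4326-treated kidneys and had the smallest called change of these genes, near the threshold (log2 fold change of 0.25, SE 0.12, adjusted p = 0.047).

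Of the 8 mitotic kinases and chromosomal passenger genes, 7 were higher, and they held 2 of the 3 higher members with the smallest adjusted p. *Incenp*, the scaffold of the complex (chr19:9872296-9899551, minus strand), was at 7.08, 10.4 and 14.2 CPM in UNT, 18.8, 21.9 and 24.4 in PBS-treated and 17.5, 21.3 and 24 in RGLS4326-treated kidneys. Every PBS-treated and every RGLS4326-treated kidney lay above all 12 UNT kidneys in *Incenp* (log2 fold change of 1.11, SE 0.085, adjusted p = 2.73e-14), which also varied least among UNT mice of the genes in this complex. *Cdca8*, the gene of borealin, had 2.75, 4.995 and 9.77 CPM in UNT, 8.79, 11.8 and 14.1 in PBS-treated and 9.75, 11.2 and 14.4 in RGLS4326-treated kidneys, with 8 PBS-treated kidneys above the UNT maximum (log2 fold change of 1.16, SE 0.14, adjusted p = 1.52e-09). *Aurkb*, the kinase of the complex, was found at 1.74, 3.73 and 7.798 CPM in UNT, 6.96, 8.48 and 12.6 in PBS-treated and 6.87, 9.19 and 12.9 in RGLS4326-treated kidneys (log2 fold change of 1.10, SE 0.16, adjusted p = 1.4e-07). *Birc5*, the gene of survivin and the remaining subunit, was at 3.47, 7.64 and 17.1 CPM in UNT, 7.18, 11.2 and 15.6 in PBS-treated and 8.68, 11.4 and 16.6 in RGLS4326-treated kidneys and changed least of the 4 (log2 fold change of 0.42, SE 0.17, adjusted p = 0.0265). Its PBS-treated levels lay inside the UNT range. *Plk1*, a kinase needed from mitotic entry to cytokinesis, was at 2.11, 3.57 and 8.56 CPM in UNT, 6.66, 8.89 and 11.7 in PBS-treated and 6.91, 8.44 and 9.97 in RGLS4326-treated kidneys, and 7 PBS-treated kidneys exceeded every UNT kidney (log2 fold change of 1.11, SE 0.16, adjusted p = 5.91e-08). *Aurka*, which acts at the spindle poles (0.75), and *Plk4*, which drives centriole duplication (0.54), were also called. *Nek2*, a kinase of centrosome separation, was not, at 3.31, 7.02 and 16.9 CPM in UNT, 7.41, 9.55 and 15.5 in PBS-treated and 8.78, 11.1 and 13.8 in RGLS4326-treated kidneys (log2 fold change of 0.26, SE 0.17, adjusted p = 0.161).

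Of the 10 kinesins, 8 were higher in PBS-treated kidneys. *Kif18b* (1.15) and *Kif2c* (log2 fold change of 1.15, SE 0.18, adjusted p = 3.34e-07), both of which act on microtubule ends, changed most, and *Kif2c* was at 1.04, 2.67 and 6.69 CPM in UNT, 5.19, 6.48 and 8.38 in PBS-treated and 4.54, 6.29 and 7.47 in RGLS4326-treated kidneys. *Kif14* (1.05), *Kif4* (0.84) and *Kif23* (0.59), motors of chromosomes and of the midzone, and *Kif15* (0.76), a spindle motor, were also higher. *Kif20a*, a kinesin of cytokinesis, was at 4.06, 8.25 and 18.1 CPM in UNT, 11.2, 14.7 and 20.2 in PBS-treated and 13.4, 16.8 and 20.2 in RGLS4326-treated kidneys (log2 fold change of 0.67, SE 0.16, adjusted p = 0.000371). *Kif11*, the motor that pushes the spindle poles apart, had 4.14, 9.71 and 18.6 CPM in UNT, 9.47, 14.9 and 20.4 in PBS-treated and 12.7, 19.9 and 29.1 in RGLS4326-treated kidneys, with 2 PBS-treated kidneys above the UNT range (log2 fold change of 0.48, SE 0.18, adjusted p = 0.0147). *Kif18a*, which limits the movement of chromosomes at the metaphase plate, was at 1.58, 2.52 and 4.04 CPM in UNT, 1.67, 2.54 and 3.49 in PBS-treated and 2.103, 3.77 and 5.84 in RGLS4326-treated kidneys. Its UNT and PBS-treated medians were nearly the same (log2 fold change of -0.072, SE 0.16, adjusted p = 0.684), with an interval of -0.40 to 0.25. *Kif20b*, the other kinesin that was not called, was at 5.05, 7.74 and 11 CPM in UNT, 7.36, 8.76 and 10.6 in PBS-treated and 8.56, 11.6 and 18.6 in RGLS4326-treated kidneys (log2 fold change of 0.17, SE 0.13, adjusted p = 0.214).

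Among the 6 centromere and kinetochore genes, 5 were higher and 1 was lower. *Ndc80* (1.05) and *Nuf2* (0.61), which encode paired subunits of the complex that grips microtubules, and *Cenpe* (0.60), a kinetochore motor, were higher. *Cenpa*, the histone that marks centromeres, was at 3.42, 6.31 and 11.6 CPM in UNT, 6.04, 9.88 and 14.3 in PBS-treated and 9.07, 11.2 and 13.8 in RGLS4326-treated kidneys (log2 fold change of 0.60, SE 0.15, adjusted p = 0.000557). *Cenpf*, a large kinetochore protein that accumulates in G2, had 4.25, 9.71 and 21.4 CPM in UNT, 8.604, 14.9 and 17.7 in PBS-treated and 13.7, 19.1 and 32.97 in RGLS4326-treated kidneys (log2 fold change of 0.48, SE 0.17, adjusted p = 0.0117). *Cenpk*, a subunit of the inner kinetochore, went the other way, at 1.28, 2.73 and 4.697 CPM in UNT, 0.986, 1.497 and 1.84 in PBS-treated and 0.967, 2.41 and 4.5 in RGLS4326-treated kidneys. PBS mice 2, 4 and 11 lay below every UNT kidney, and the others in the lower part of the UNT range (log2 fold change of -0.84, SE 0.23, adjusted p = 0.00107). Exons of *Cenpk* overlap those of *Ppwd1* on the other strand, and its promoter windows held CCAAT without TTTGAA or TTTAAA.

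Of the 7 spindle microtubule genes, 6 were higher. *Tpx2*, which activates Aurora A and starts microtubules near chromosomes, was at 3.21, 8.05 and 16.5 CPM in UNT, 16.1, 19.5 and 26.5 in PBS-treated and 17.3, 23.8 and 27.2 in RGLS4326-treated kidneys, and 9 PBS-treated kidneys lay above every UNT kidney (log2 fold change of 1.27, SE 0.17, adjusted p = 1.53e-08). *Prc1*, the bundler of the central spindle (1.14), *Ckap2l* (0.91), *Ckap2* (0.60) and *Nusap1* (0.40), which bind spindle microtubules, were called as well. *Aspm*, which focuses spindle poles, was at 3.18, 4.73 and 10.2 CPM in UNT, 4.57, 8.63 and 10.9 in PBS-treated and 7.76, 10.9 and 17.4 in RGLS4326-treated kidneys (log2 fold change of 0.61, SE 0.17, adjusted p = 0.00153). *Hmmr*, a spindle protein also known as a hyaluronan receptor, was at 2.86, 7.63 and 19.9 CPM in UNT, 5.17, 9.07 and 13.5 in PBS-treated and 8.59, 12.6 and 17.8 in RGLS4326-treated kidneys. Its wide UNT range contained the PBS-treated one (log2 fold change of -0.023, SE 0.21, adjusted p = 0.922), and the interval of the change, -0.45 to 0.40, was wide.

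The 5 genes of anaphase onset and cohesion split. *Cdca5*, the gene of sororin, which protects cohesion (1.23), *Ube2c*, the ubiquitin-conjugating enzyme of the APC/C (1.04), and *Espl1*, the gene of separase (0.95), were higher. *Cdc20*, which activates the APC/C, was at 3.29, 8.23 and 22.6 CPM in UNT, 8.93, 13.3 and 16.99 in PBS-treated and 10.8, 12.5 and 16.2 in RGLS4326-treated kidneys and was not called (log2 fold change of 0.34, SE 0.20, adjusted p = 0.112). *Pttg1*, the gene of securin, the inhibitor of separase, was at 47.8, 54.6 and 64.6 CPM in UNT, 28.6, 34.6 and 51.5 in PBS-treated and 27.1, 29.8 and 37.8 in RGLS4326-treated kidneys. All but 1 of the PBS-treated kidneys lay below all UNT kidneys, the exception being mouse 9 at 51.5 CPM (log2 fold change of -0.63, SE 0.076, adjusted p = 2.13e-09). Per kilobase of exon, *Pttg1* was the most abundant member in all 3 groups, at 27.7, 17.9 and 15.8 CPM per kb in UNT, PBS-treated and RGLS4326-treated kidneys, where the median member was at 1.46, 2.42 and 2.81 CPM per kb. It was also 1 of 10 members whose matched windows held no TTTGAA or TTTAAA, although its window did not reach the gene's upstream end in GENCODE M21.

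All 3 cytokinesis genes had positive values and 2 were called. *Anln*, the gene of anillin, which organises the contractile ring, was at 3.34, 7.49 and 15.7 CPM in UNT, 15.6, 23.3 and 32.2 in PBS-treated and 22.02, 28.1 and 33.2 in RGLS4326-treated kidneys. This was the largest change of the 56 (log2 fold change of 1.58, SE 0.17, adjusted p = 1.31e-10), and 10 of the 11 PBS-treated kidneys exceeded every UNT kidney. *Racgap1*, part of the central spindle, changed by 1.11. *Ect2*, which activates the ring by switching on RhoA, was at 6.44, 12.6 and 16.1 CPM in UNT, 7.12, 13.7 and 18.6 in PBS-treated and 11.3, 15.8 and 20.2 in RGLS4326-treated kidneys (log2 fold change of 0.14, SE 0.14, adjusted p = 0.352) and was not called. Of the 4 condensin genes, *Ncaph* (1.11) was higher, as were *Smc2*, at 9.65, 14.2 and 18.9 CPM in UNT, 12.7, 22.6 and 29.9 in PBS-treated and 21.6, 28.4 and 39.2 in RGLS4326-treated kidneys (log2 fold change of 0.66, SE 0.11, adjusted p = 2.33e-06), and *Ncapg*, at 1.74, 3.998 and 8.08 CPM in UNT, 3.42, 5.72 and 9.95 in PBS-treated and 4.51, 7.69 and 11.9 in RGLS4326-treated kidneys (log2 fold change of 0.49, SE 0.21, adjusted p = 0.0321). *Smc4*, whose product pairs with Smc2 in every condensin, was lower, at 42.01, 48.97 and 70.4 CPM in UNT, 31.4, 38.6 and 48.99 in PBS-treated and 37.2, 54.3 and 92.2 in RGLS4326-treated kidneys (log2 fold change of -0.35, SE 0.12, adjusted p = 0.00676). The pair of condensin core genes thus differed in direction, with overlap between the groups in both. Of the 3 lower members, *Pttg1* was called in every alternative fit, with -0.85 (adjusted p = 5.79e-09) when the percentage of reads outside genes was a covariate, whereas *Cenpk* (-0.13, adjusted p = 0.701) and *Smc4* (0.14, adjusted p = 0.343) were not called with it, and 44 members were higher in that fit, against 37% of all tested genes.

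**Figure D3:**
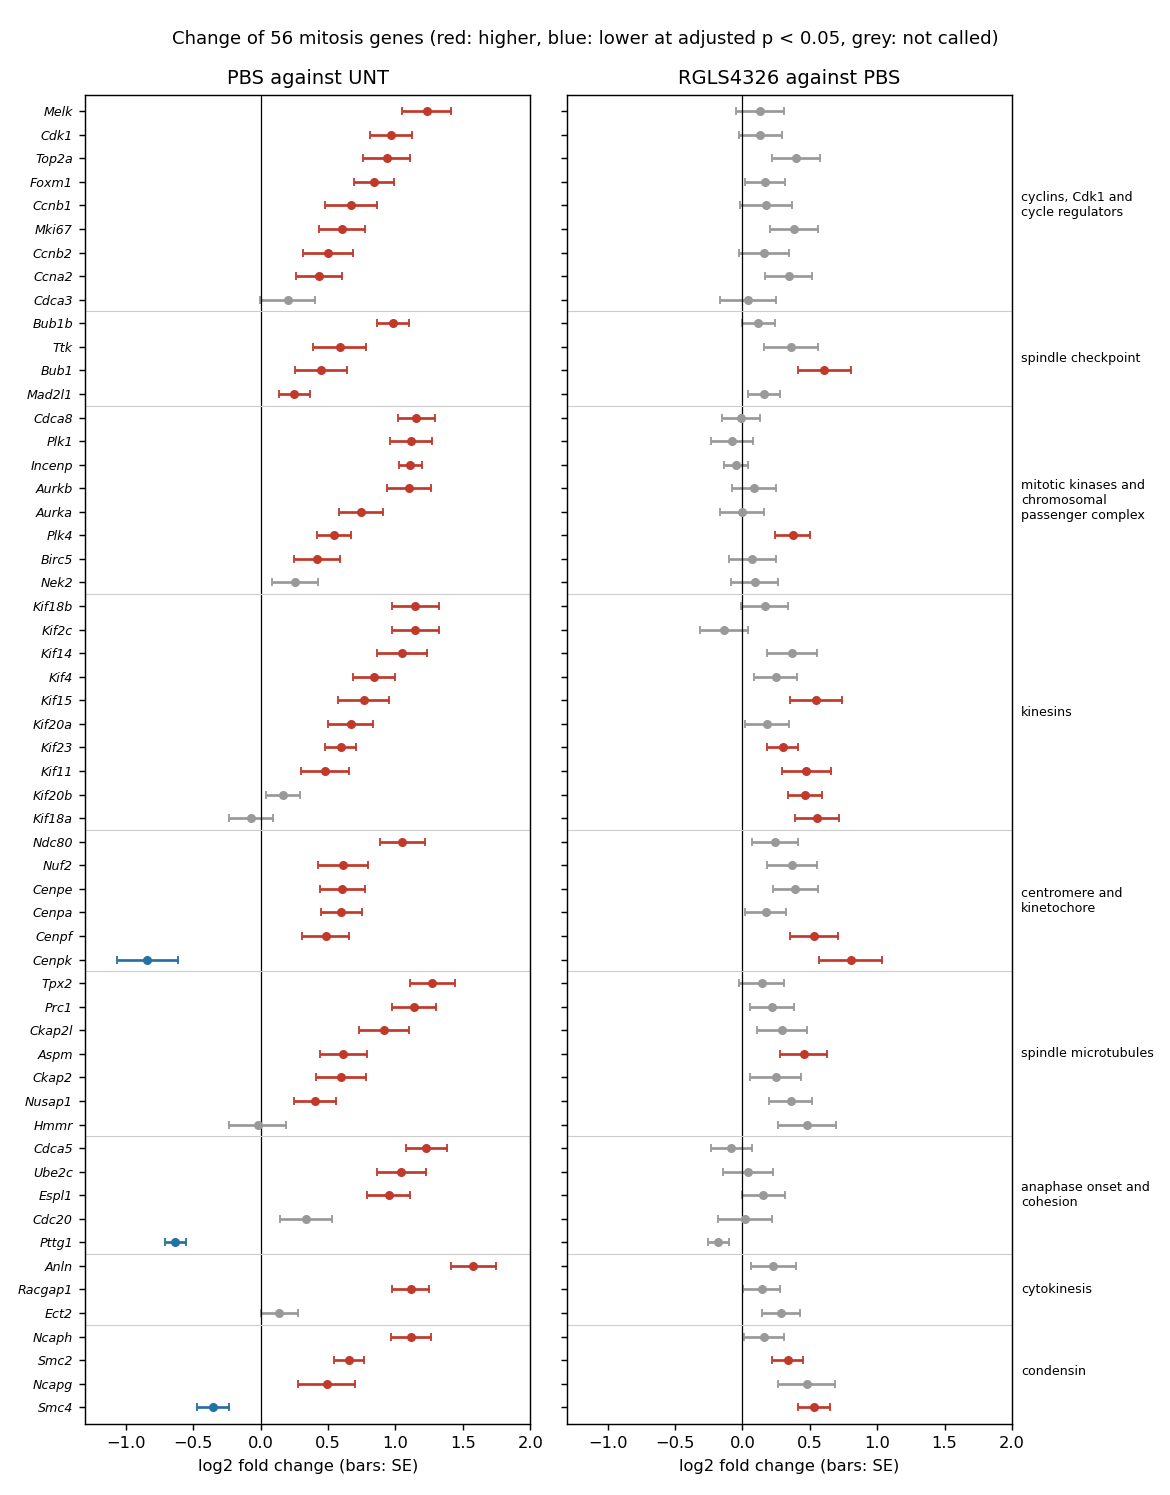
Log2 fold change of each of the 56 mitosis genes, with its SE as a bar, in PBS-treated against UNT kidneys (left) and in RGLS4326-treated against PBS-treated kidneys (right), ordered by role. Most genes are red (higher) on the left, with Cenpk, Pttg1 and Smc4 in blue (lower), and 12 are red on the right with the rest grey (not called).

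Some calls turned on single mice. The call of *Birc5* ended without PBS mouse 9 (0.32), and that of *Bub1* without UNT mouse 1, 3, 6, 7 or 12 or PBS mouse 1, 6 or 8 (0.37 to 0.43). *Ncapg* was no longer called without UNT mouse 1, 3, 6, 7 or 12 or PBS mouse 1 or 8 (0.39 to 0.45). *Mad2l1* lost its call without any 1 of 13 mice (0.19 to 0.25), which were those named for *Bub1*, UNT mouse 9, PBS mice 4, 9 and 10, and RGLS4326 mouse 4. The last is in neither group compared here and enters only through the filter, scaling, fit and correction that all 3 groups share. In the other direction, *Nek2* (0.39) and *Cdc20* (0.50) were called without UNT mouse 8, the mouse with the highest sum of its group, and *Cdc20* also without UNT mouse 5 (0.43).

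By call, the promoter letters were spread as follows. Of the 46 members that were higher in PBS-treated kidneys, 40 had a RefSeq promoter, and 34 of these held TTTGAA or TTTAAA and 28 held CCAAT. Of the 7 not called, all had a promoter, and 5 held each motif. Of the 3 that were lower, *Cenpk* and *Pttg1* had a promoter, and 0 held TTTGAA or TTTAAA. These are 2 genes, and the *Pttg1* window stops short of the gene's upstream end in GENCODE M21. No difference in motifs between the calls can be read from them. *Melk*, *Mad2l1*, *Nuf2*, *Nusap1* and *Ncaph* were higher with neither motif in their windows, and the windows of *Kif18a* and *Pttg1* had neither as well.

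Genes of the same processes outside the 56 were examined by lists written from general knowledge, also with earlier results known. Of 31 other kinetochore and checkpoint genes, 19 were higher and 5 lower in PBS-treated than in UNT kidneys, with a median log2 fold change of 0.40. The extremes were *Trip13*, which remodels the checkpoint protein Mad2 (1.41 ± 0.14, adjusted p = 1.2e-11), and *Spc25*, the partner of *Ndc80* in the same complex, which was lower (-2.003 ± 0.14, adjusted p = 9.46e-16; errors here are SE). Of 36 other genes of mitotic entry, spindle and exit, 26 were higher and 4 lower (median 0.49), between *Psrc1*, a spindle protein (2.98 ± 0.19, adjusted p = 2.36e-16), and *Cit*, the gene of citron kinase (-1.01 ± 0.17, adjusted p = 1.75e-06). Of 30 DNA replication genes, 21 were higher and 5 lower (median 0.66), the largest value being in *Orc1*, an origin-binding subunit (1.43 ± 0.17, adjusted p = 1.26e-09). The 14 APC/C subunits had 6 higher and 3 lower (median 0.06), and the 12 cohesin genes 1 higher and 4 lower (median -0.07). The 15 genes of DREAM and MuvB, which regulate the promoters described above, had 8 higher and 6 lower (median 0.12). The medians of the last 3 lists lay near the 0.04 of all tested genes, and each list's counts stand beside the 43.1% of all tested genes that were higher and the 39% that were lower.

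Markers of other cell types also differed between these kidneys. All 8 macrophage markers were higher in PBS-treated than in UNT kidneys, and their summed level was 104 to 182 CPM in UNT, 726 to 1890 in PBS-treated and 655 to 1327 in RGLS4326-treated kidneys. All 7 fibroblast markers were higher, with sums of 606 to 1509, 3195 to 6632 and 4273 to 6285 CPM. Of 8 T and B lymphocyte markers, 5 were higher and 1 lower, with sums of 2.58 to 5.44, 9.47 to 29.6 and 7.43 to 12.4 CPM. All 7 collecting duct markers were higher (646 to 1035 CPM in UNT, 1130 to 2651 in PBS-treated and 593 to 2337 in RGLS4326-treated kidneys), and all 7 proximal tubule markers lower (9508 to 13160, 763 to 2842 and 1855 to 3172 CPM). Of 7 endothelial markers, 2 were higher and 4 lower. Among 5 podocyte markers, 1 was higher and 4 were lower. All 4 tested nephron progenitor markers, of 5 listed, were lower. Erythroid precursors, which divide often, gave 3 tested markers, all lower, and sums of 130 to 253, 32.2 to 106 and 54.3 to 109 CPM. Within the PBS-treated group, mice 9, 11 and 2, with the highest macrophage sums of 1890, 1701 and 1752 CPM, had the 3 lowest sums of the mitosis genes, at 704, 630 and 639 CPM, and mouse 8, with the lowest macrophage sum, had the highest. The RGLS4326-treated group was less ordered. Its mouse 10, with the highest macrophage sum (1327 CPM), had the lowest sum of the mitosis genes (714 CPM), whereas mouse 6, with the lowest macrophage sum (655 CPM), was at 868 CPM and mouse 4, with the second highest (1301 CPM), at 937 CPM. Which cells the mitosis transcripts came from was not tested.

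**Figure D4:**
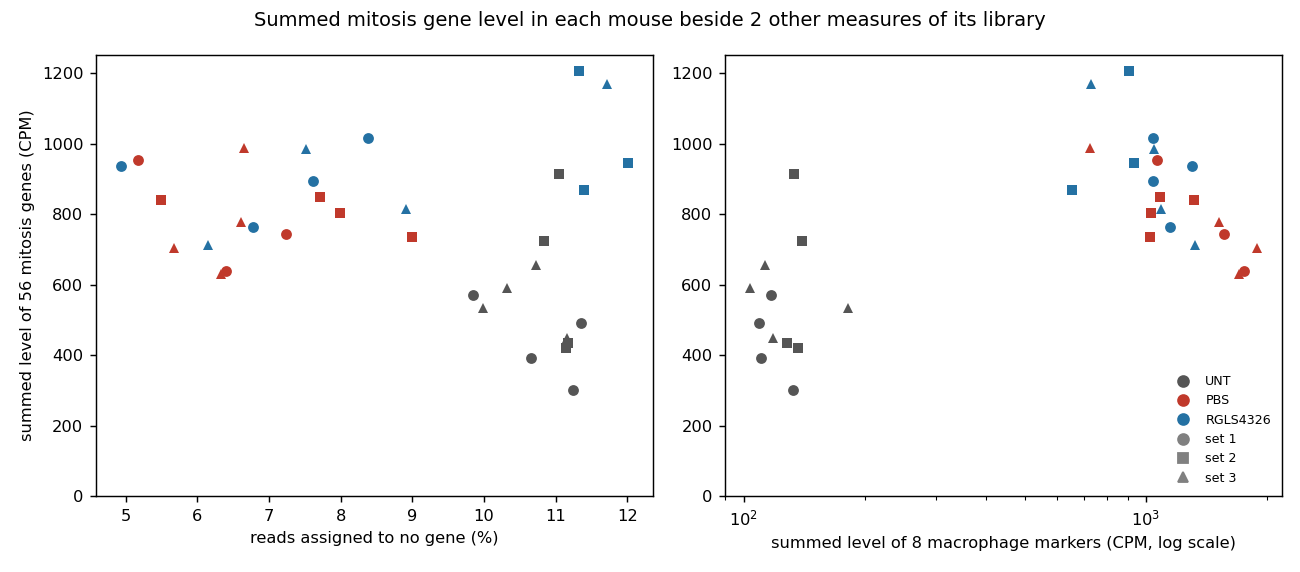
Summed level of the 56 mitosis genes in each mouse (CPM, linear axis from 0) against the share of its reads assigned to no gene (left) and the summed level of 8 macrophage markers (right, log axis), with groups in colour and sets as symbols. The UNT mice run from 301 to 914 CPM and overlap both other groups, and the 4 RGLS4326-treated mice with over 11% of reads in no gene have sums of 1208, 1170, 945 and 868 CPM, beside 714 to 1016 CPM in the other 7.

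To ask whether treatment moved the mitosis genes, RGLS4326-treated and PBS-treated kidneys were compared. Of the 56 members, 12 were higher in RGLS4326-treated kidneys, against 15.3% of all tested genes, and 0 were lower, against 18.5%, with 1 member, *Pttg1*, lower at an unadjusted p under 0.05. The same 12 to 0 was found with DESeq2. The 12 were *Bub1*, *Plk4*, *Kif11*, *Kif15*, *Kif18a*, *Kif20b*, *Kif23*, *Cenpf*, *Cenpk*, *Aspm*, *Smc2* and *Smc4*. The median log2 fold change of the members was 0.22, against 0.00 for all tested genes, 49 of the 56 values were positive, and the members' median was 0.22, 0.25 and 0.23 within the 3 sets. The groups overlapped in every member, as they did in nearly all genes, 0.0447% of which were higher and 0.0192% lower without overlap.

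The 12 calls rested on a part of the libraries. With the percentage of reads outside genes entered as a covariate in the fit, 0 of the 56 members were called, against 0.358% of all tested genes that were higher, and without the 4 RGLS4326 libraries with the highest such share, 0 were called, against 1.13%. In these edgeR fits 2 members and 1 member were at an unadjusted p under 0.05, and the members' medians were 0.19 and 0.14. Within the sets alone, 0, 6 and 0 members were called, against 0.261, 13.6 and 0% of all tested genes that were higher. The 6 were in the second set, where every RGLS4326 library was among those 4. Leaving out single mice gave 5 higher members without RGLS4326 mouse 5 (against 11.2% of all tested genes) and 7 without PBS mouse 9 or PBS mouse 11 (12.8 and 11.4%). A fit of the 2 groups alone, in which the UNT mice did not enter the estimate of spread, gave 21 (12.6%). With a log2 fold change above 0.5 also required, 6 of the 12 were called, against 4.62% of all tested genes. The part of the share of reads in no gene in these changes was not tested.

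The RGLS4326-treated levels of the 12 are among those given by gene above and in the plot of levels. *Smc4* had the smallest p, and 10 of the 11 RGLS4326-treated kidneys lay above the PBS median (log2 fold change of 0.53, SE 0.12, adjusted p = 0.00334). In its 4 highest mice, RGLS4326 mice 5, 7, 11 and 6, *Smc4* was at 92.2, 75.9, 72.9 and 68.7 CPM, and these are the 4 mice with the most reads in no gene. The other 7 RGLS4326-treated mice had 37.2 to 56.6 CPM, against 31.4 to 48.99 CPM in PBS-treated mice. Without those 4 libraries its change was 0.23 ± 0.10, adjusted p = 0.15 (SE). *Kif20b*, a kinesin of late mitosis, followed (log2 fold change of 0.47, SE 0.13, adjusted p = 0.00902), with 0.25 ± 0.13, adjusted p = 0.212 without the 4. *Cenpk*, lower in PBS-treated than in UNT kidneys, had the largest treatment value (log2 fold change of 0.80, SE 0.23, adjusted p = 0.0115). Its RGLS4326-treated mice spanned a 4.66-fold range, and without the 4 libraries the value was 0.37 ± 0.24, adjusted p = 0.317.

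Among the rest of the 12, *Bub1* (0.61 ± 0.20, adjusted p = 0.0193), *Kif18a* (0.56 ± 0.16, adjusted p = 0.0123) and *Kif15* (0.55 ± 0.19, adjusted p = 0.0278) had the largest values. *Cenpf* (0.53 ± 0.18, adjusted p = 0.0227), *Kif11* (0.48 ± 0.18, adjusted p = 0.0422) and *Aspm* (0.46 ± 0.17, adjusted p = 0.0415) came next. *Plk4* (0.37 ± 0.13, adjusted p = 0.0266), *Smc2* (0.34 ± 0.11, adjusted p = 0.0244) and *Kif23* (0.30 ± 0.11, adjusted p = 0.0418) were the smallest. Without the 4 libraries these 9 values ranged from 0.065 in *Kif23* to 0.39 in *Bub1*. Of the 12, *Bub1*, *Kif18a*, *Kif20b*, *Cenpk* and *Smc4* were called whichever single mouse was left out. *Cenpf* (0.44) and *Smc2* (0.28) were not called without RGLS4326 mouse 5, *Plk4* without that mouse, RGLS4326 mouse 7 or PBS mouse 9 or 11 (0.31 to 0.34), and *Kif15* without RGLS4326 mouse 5 or 11 or PBS mouse 2, 9 or 11 (0.46 to 0.52). *Aspm* (0.38 to 0.47), *Kif11* (0.41 to 0.48) and *Kif23* (0.22 to 0.31) lost the call without any 1 of 10, 11 and 11 mice, which included RGLS4326 mice 5, 6, 7 and 11 in each gene. By role, the 12 held 5 of the 10 kinesins, 2 of the 6 kinetochore genes, 2 of the 4 condensin genes, and 1 each of the checkpoint genes, kinases and spindle microtubule genes.

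None of the 9 cyclins and regulators, of the 5 anaphase genes or of the 3 cytokinesis genes was called. *Mki67* (0.38 ± 0.18, adjusted p = 0.0879) and *Top2a* (0.40 ± 0.18, adjusted p = 0.0782) had positive values, and 9 and 10 of the 11 RGLS4326-treated kidneys lay above the PBS median in them. *Cdk1* (0.13 ± 0.16, adjusted p = 0.52), *Ccnb1* (0.18 ± 0.19, adjusted p = 0.481) and *Foxm1* (0.17 ± 0.15, adjusted p = 0.379) were closer to 0. The 95% interval of the change was -0.22 to 0.57 for *Ccnb1* and -0.19 to 0.45 for *Cdk1*. Neither a small fall nor a moderate rise was thus outside what this fit allows. Its estimate of spread is shared with the UNT mice, which varied more in both genes. The coefficient of variation of *Ccnb1* was 50.2% in UNT, 20.4% in PBS-treated and 15.1% in RGLS4326-treated mice. That of *Cdk1* was 37.9, 18.1 and 17.7%. The 4 subunits of the chromosomal passenger complex, all higher in PBS-treated than in UNT kidneys, had small treatment values in *Incenp* (-0.047 ± 0.086, adjusted p = 0.684), *Cdca8* (-0.011 ± 0.14, adjusted p = 0.96), *Aurkb* (0.089 ± 0.16, adjusted p = 0.683) and *Birc5* (0.075 ± 0.18, adjusted p = 0.754). The interval of *Incenp* was -0.22 to 0.13, the narrowest of these 4.

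The other members with full values were not called either. *Plk1* was at -0.078 ± 0.16, adjusted p = 0.715, *Kif20a* at 0.18 ± 0.17, adjusted p = 0.39 and *Kif2c* at -0.14 ± 0.18, adjusted p = 0.56. *Mad2l1* had 0.16 ± 0.12, adjusted p = 0.279, *Cenpa* 0.17 ± 0.15, adjusted p = 0.384 and *Tpx2* 0.14 ± 0.17, adjusted p = 0.519. *Anln*, which changed most between PBS-treated and UNT kidneys, had 0.23 ± 0.17, adjusted p = 0.284. *Ncapg* was at 0.48 ± 0.21, adjusted p = 0.0764, *Hmmr* at 0.48 ± 0.22, adjusted p = 0.0787 and *Ect2* at 0.29 ± 0.14, adjusted p = 0.103. Values near 0 were found in *Cdc20* (0.020 ± 0.20, adjusted p = 0.947), *Cdca3* (0.045 ± 0.21, adjusted p = 0.879) and *Nek2* (0.093 ± 0.17, adjusted p = 0.693). *Pttg1*, already low in PBS-treated kidneys, had the most negative value (-0.18 ± 0.078, adjusted p = 0.0712), and only 3 of 11 RGLS4326-treated kidneys lay above its PBS median. It became a call, as the single lower member, when RGLS4326 mouse 4 or 10 or PBS mouse 1 or 5 was left out (-0.21 to -0.20). *Top2a* was called higher without UNT mouse 3 (0.40), *Hmmr* without PBS mouse 8 (0.55), *Ncapg* without PBS mouse 1 or RGLS4326 mouse 10 (0.54 to 0.58), *Nusap1* without the latter (0.40) and *Cenpe* without UNT mouse 3 or 8 or RGLS4326 mouse 3 or 10 (0.39 to 0.44).

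The base composition of the transcripts moved with the treatment values. GC content was taken from the longest coding transcript of each gene in GENCODE M21. The 12 called members had a median of 41.6% GC (36.3 to 46.3%), and the other 44 a median of 47.6%. Split at the members' median of 46.1% GC, 11 of the 28 members with less GC and 1 of the 28 with more were called, with median log2 fold changes of 0.37 and 0.14. Among all tested genes, 35.3% of the 3913 at or below that GC were called higher, with a median of 0.18, and 7.36% of the 10305 above it, with a median of -0.08. Without the 4 libraries the members' medians were 0.23 and 0.09. Within the sets they were 0.22 and 0.23 in the first, 0.52 and 0.11 in the second and 0.39 and 0.10 in the third. In PBS against UNT kidneys the medians were 0.56 and 0.96, and 21 of the 28 members with less GC and 25 of the 28 with more were higher. All tested genes were not split by GC in that comparison. *Cenpk*, *Smc4*, *Kif18a*, *Kif20b*, *Ect2* and *Hmmr*, which were lower or not called there, lay at or below the members' median GC, as did *Pttg1*. *Cdca3*, *Nek2* and *Cdc20*, also not called there, lay above it. The part of base composition in either comparison was not tested.

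**Figure D5:**
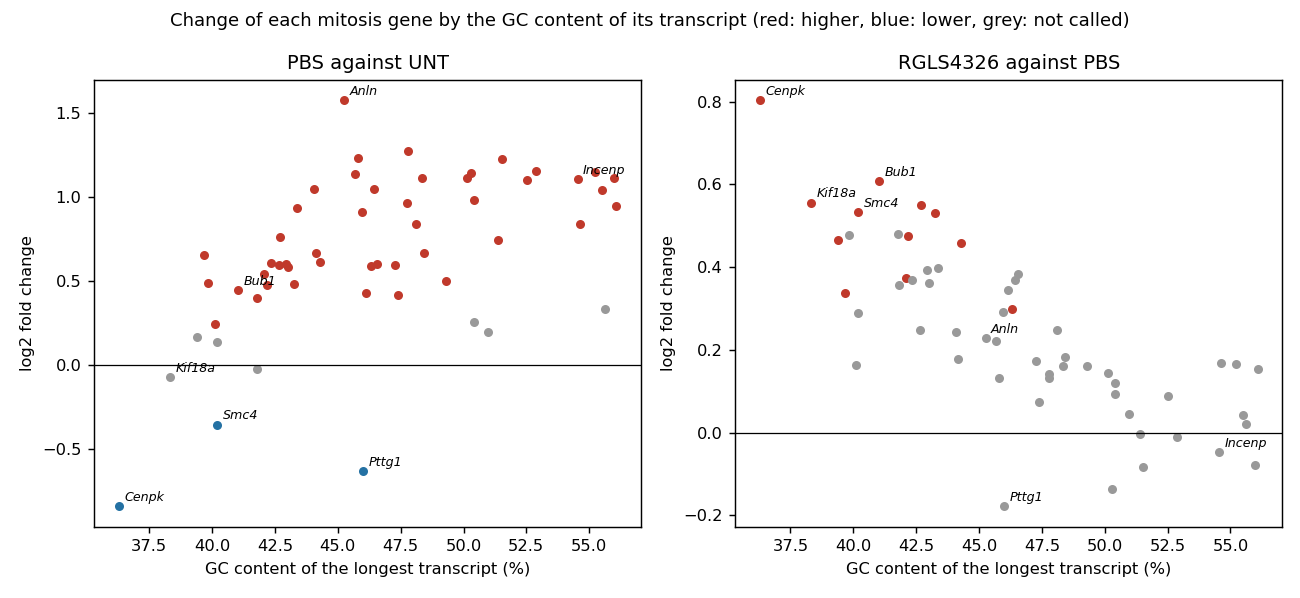
Log2 fold change of each mitosis gene (vertical axis) against the GC content of its longest coding transcript in percent (horizontal axis), for PBS-treated against UNT (left) and RGLS4326-treated against PBS-treated kidneys (right), with called genes in colour. On the right the called genes lie from 36.3 to 46.3% GC, within the members' range of 36.3 to 56.1% and among genes not called. Cenpk has the lowest GC and the largest value.

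miR-17, the target of RGLS4326, recognises messenger RNAs by its seed, bases 2 to 8. Its mature sequence is shown with the seed in capitals (RefSeq, GRCm38.p6, chr14:115043684-115043706, plus strand), followed by the sites in the 3′UTRs of the 2 members called in RGLS4326 against PBS that held one, with 10 bases on either side and the match in capitals (GENCODE M21, GRCm38).
miR-17-5p: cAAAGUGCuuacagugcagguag
Kif23, chr9:61917425-61917452, minus strand: aaaaaaaaatGCACTTTAgacatattta
Smc2, chr4:52486770-52486796, plus strand: attctttttaGCACTTTtaaaattgca
In all, 6 of the 56 members (10.7%) had a match of 7 or 8 bases in the longest annotated 3′UTR, against 21.2% of the 14193 tested genes with a 3′UTR, and their 3′UTRs were shorter, with a median of 606 against 1150 bases. *Kif23* held the only 8-base match. *Smc2* and *Foxm1* held 7-base matches to the seed, and *Ccna2*, *Cenpe* and *Ckap2* held the 7-base match that ends in A. Of these 6, *Kif23* and *Smc2* were called higher in RGLS4326-treated kidneys, whereas *Cenpe* (0.39 ± 0.17, adjusted p = 0.066), *Ccna2* (0.34 ± 0.18, adjusted p = 0.12), *Ckap2* (0.25 ± 0.19, adjusted p = 0.305) and *Foxm1* were not, and the other 10 called members had no match.

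Whether the treatment change differed between the sets was tested in the 22 *Pkd2*-KO libraries. Of 15233 genes, 0 (0%) were called, members included, with 796 genes and 1 member at an unadjusted p under 0.05 in this edgeR fit. That member was *Smc4*, whose change was 0.18, 0.88 and 0.57 in the 3 sets (unadjusted p = 0.0363, adjusted p = 0.865). *Kif11*, by contrast, had 0.42, 0.56 and 0.52.

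The lists of related genes stand beside 15.3% of all tested genes that were higher and 18.5% that were lower, and as with the members the fits with the covariate and without the 4 libraries called few genes higher (0.358 and 1.13% of all tested). They called few lower as well, 33 of 15644 and 153 of 15837 genes, against 2892 of 15644 in the fit behind the counts below. In these lists RGLS4326-treated kidneys had 9 higher and 2 lower of the 31 other kinetochore and checkpoint genes (median 0.18), between *Casc5*, the kinetochore scaffold also named Knl1 (0.75 ± 0.21, adjusted p = 0.00874), and *Mad1l1*, the partner of Mad2 (-0.21 ± 0.074, adjusted p = 0.0299). Of the 36 other mitotic genes, 6 were higher and 4 lower (median 0.10), with *Depdc1a* at 0.84 ± 0.26, adjusted p = 0.0168 and *Psrc1* at -0.41 ± 0.18, adjusted p = 0.0723. Of the 12 cohesin genes, 8 were higher and 0 lower (median 0.28), the largest value being in *Esco2*, which acetylates cohesin in S phase (0.82 ± 0.22, adjusted p = 0.0083). The 14 APC/C subunits had 2 higher and 4 lower (median -0.13), the 15 DREAM and MuvB genes 5 higher and 2 lower (median 0.13), and the 30 DNA replication genes 3 higher and 0 lower (median -0.0044). Of the markers, 4 of 8 macrophage, 5 of 7 collecting duct and 5 of 8 lymphocyte markers were lower and 5 of 7 proximal tubule, 5 of 7 endothelial, 4 of 5 podocyte, 1 of 7 fibroblast and 1 of 3 tested erythroid markers higher in RGLS4326-treated than in PBS-treated kidneys, and 0 of 4 nephron progenitor markers was called. The part of these in the treatment values was not tested.

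RGLS4326-treated kidneys were also set beside UNT kidneys, with which the PBS-treated kidneys above had been compared. Of the 56 members, 50 were higher in RGLS4326-treated kidneys, against 40.8% of all tested genes, and 1 was lower, against 36.9%, with a median log2 fold change of 0.996 against 0.02. In 9 members, *Bub1b*, *Incenp*, *Prc1*, *Tpx2*, *Cdca5*, *Anln*, *Racgap1*, *Smc2* and *Ncaph*, every RGLS4326-treated kidney lay above every UNT kidney, against 20.7% of all tested genes. *Pttg1* was the single member with all RGLS4326-treated kidneys below all UNT kidneys, against 16.1% of all tested genes (log2 fold change of -0.81, SE 0.077, adjusted p = 8.06e-12). The 5 members not called were *Cenpk* (-0.038 ± 0.22, adjusted p = 0.884), *Smc4* (0.18 ± 0.12, adjusted p = 0.162), *Cdca3* (0.25 ± 0.20, adjusted p = 0.271), *Nek2* (0.35 ± 0.17, adjusted p = 0.0613) and *Cdc20* (0.36 ± 0.20, adjusted p = 0.0972). *Anln* had the largest difference again (1.81 ± 0.17, adjusted p = 6.65e-12), the median kidney being at 28.1 CPM after RGLS4326 and at 7.49 CPM in the UNT group. *Kif18a* (0.48 ± 0.16, adjusted p = 0.00667), *Kif20b* (0.63 ± 0.13, adjusted p = 2.77e-05), *Hmmr* (0.46 ± 0.21, adjusted p = 0.0476) and *Ect2* (0.43 ± 0.14, adjusted p = 0.0054), which were not called between PBS-treated and UNT kidneys, were higher here. The call of *Hmmr* ended without any 1 of 21 mice (0.37 to 0.47), and without UNT mouse 8 *Cdca3* (0.42), *Nek2* (0.48) and *Cdc20* (0.52) were called. *Cdc20* was also called without UNT mouse 5 (0.45). *Nek2* was called without any 1 of 6 mice, which were UNT mice 4, 5, 8, 10 and 11 and RGLS4326 mouse 10 (0.38 to 0.48). Within each set alone 50, 37 and 40 members were higher, against 35.8, 33.8 and 29.9% of all tested genes.

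For 16 members the exons overlap those of another annotated gene, so that their counts are uncertain. In all but *Top2a* and *Foxm1*, where an overlapping gene lies on the same strand, this holds only where the counting did not use strand, which was not given in the sources used here. They were *Top2a*, *Ccna2*, *Foxm1*, *Plk1*, *Nek2*, *Cdca8*, *Kif4*, *Kif18a*, *Kif20a*, *Cenpk*, *Nusap1*, *Prc1*, *Ckap2l*, *Cdc20*, *Ube2c* and *Ncapg*. The overlap was largest in *Kif20a*, with 1271 bases shared with *Cdc23*, and smallest in *Kif18a*, with 11 bases shared with *Mettl15*.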

How the data were processed

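The authors sequenced stranded mRNA libraries as paired ends on a NextSeq 500, trimmed the reads with Trim Galore, mapped them with STAR to GRCm38 (mm10) and counted uniquely mapped reads per gene with HTSeq 0.6.1 (versions as in the submitters' processing notes). The deposited values are unnormalized read counts, with a separate table of gene symbols for each of the mice. The gene annotation and the strand setting of the counting are not given in the sources used here. Labels spell the genotype "Pdk2KO", and the study's text gives *Pkd2*-KO.

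The 34 libraries (0 identical pairs) were fitted together in edgeR 4.0.16 (R 4.3.3) with 3 groups, TMM factors, filterByExpr and the quasi-likelihood test. Reads that the counter assigned to no gene stayed out of library sizes. The procedure was tested on simulated data. Nothing in the labels says that mice of a group came from separate litters, so that p-values measure the spread between these mice. The members and the gene lists were chosen with earlier results of these data known. Full values are given for 21 members fixed by role, for the 3 with the smallest p in each direction of each of the first 2 comparisons, and for every member lower or not called in PBS-treated kidneys, and other genes only as the extremes of a list. Sets were read from where the sample number in the sequencing names restarts. Replicate numbers did not pair the mice: same-numbered mice deviated together with a median correlation of -0.019 over 33 pairs (-0.004 over 352 other pairs). Python 3.11.15 drew the figures.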

Additional observations from a re-analysis of the deposited data

How the results depend on the processing

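The count of higher members in RGLS4326 against PBS was 12 and became 0 with the percentage of reads outside genes entered as a covariate, 0 without the 4 RGLS4326 libraries with the highest such share (an alternative chosen after seeing the data), 0, 6 and 0 in sets 1, 2 and 3 alone (fewer samples), 21 with only the 2 groups fitted, 6 with an absolute log2 fold change above 0.5 required (against 4.62% of all tested genes), and 5 to 15 when 1 mouse was left out, with 0 to 1 lower. The first of these ended the call for each of the 12, and the cause was not tested. In PBS against UNT, the 46 higher members became 23 and 29 in sets 2 and 3 alone (against 35.9 and 33.8% of all tested genes), the lower count fell from 3 to 1 with the covariate and in set 1, and leaving out 1 mouse gave 43 to 48 higher and 3 to 3 lower. RGLS4326 against UNT gave 49 to 53 higher and 1 to 1 lower in the same way. Relative log expression and upper quartile scaling, no filter, DESeq2 and set as a block kept these counts within 1.5 times. With a replicate block, which the numbers do not warrant, 47 and 3, 11 and 0, and 52 and 1 members were called in the 3 comparisons, and *Cdc20* became a call in PBS against UNT (0.41). The test of treatment by set called 0 members with either scaling or without a filter.

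Some named changes turned sign. In PBS against UNT these were *Smc4* (0.14) with the covariate, *Cdc20* (-0.11) and *Cdca3* (-0.29) in set 2, *Kif20b* (-0.017) and *Ect2* (-0.28) in set 3, *Kif18a* (0.36 with the covariate, 0.026 in set 1) and *Hmmr* (0.15 with the covariate, 0.059 with the replicate block, 0.43 in set 1). In RGLS4326 against PBS they were *Aurkb* (-0.0026) and *Birc5* (-0.011) without the 4 libraries, *Birc5* (-0.008) and *Cdca3* (-0.057) in set 3, *Plk1* (0.030), *Pttg1* (0.024) and *Cdca8* (0.021) in set 1, *Cdc20* (-0.14) and *Cdca3* (-0.043) in set 2, and *Cdca8* (0.004 with no filter, 0.0048 with set as a block, 0.037 with the covariate). Leaving out 1 mouse gave -0.13 to 0.00 in *Kif18a* and -0.11 to 0.13 in *Hmmr* in the first comparison, and -0.025 to 0.066 in *Cdc20*, -0.011 to 0.12 in *Cdca3* and -0.047 to 0.026 in *Cdca8* in the second. The 9.84 to 11.3% of reads in no gene in UNT and the 5.18 to 8.995% in PBS libraries did not overlap, so that this share and the group cannot be told apart there.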
